A study of Mus musculus with 37 samples.

Results

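Collagen genes were taken as the genes whose single annotated symbol has the form Col, a number, a and a number, with the probe set of highest mean signal standing for a gene. The rule found 44 of 19937 genes. Of these, 11 encode fibrillar chains, 6 encode the chains of basement membrane type IV and 27 belong to other types. They were measured in mammary glands of FVB female mice that were wild type for PTP1B (WT) or lacked it in the whole body (KO, PTP1B-/-). PTP1B is the tyrosine phosphatase encoded by Ptpn1, and the knockout had been crossed back to FVB for at least 7 generations. Glands came from nulliparous mice in oestrus (P0) or from mice at day 3, 7, 10 or 15 of pregnancy (P3, P7, P10, P15), mated at 12 weeks of age and given no treatment. WT and KO groups held 4 and 4 arrays at P0, 3 and 3 at P3, 4 and 5 at P7, 3 and 3 at P10, and 4 and 4 at P15, 37 arrays in all. Nothing in the labels says that replicates are separate animals, so p-values measure the spread between these samples alone.

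Collagens are triple helices wound from 3 chains, and each chain has its own gene. Fibrillar chains (types I, II, III, V, XI, XXIV and XXVII) form the cross-striated fibrils of connective tissue, whereas type IV forms the sheet-like network under epithelium, around adipocytes and in vessel walls. Type VI forms beaded filaments next to basement membranes, fibril-associated chains such as types IX, XII and XIV sit on fibril surfaces, and types XV and XVIII are multiplexins that carry sugar chains in basement membrane zones. In the mammary gland the fibrous stroma around ducts holds much of types I, III, V and VI, made mainly by fibroblasts, and a basement membrane surrounds each alveolus as the epithelium expands in pregnancy.

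The signal is a deposited log2 value per probe set, whose level is not comparable between genes, so every comparison is within a gene. Ptpn1 read 7.90 to 9.06 in the 18 WT arrays and 5.36 to 6.49 in 18 of the 19 KO arrays, but 8.68 in KO P15 replicate 3. Lymphocyte markers were high in WT P7 replicate 1 and in KO P10 replicates 2 and 3. Skeletal muscle markers were high in WT P0 replicate 4, KO P3 replicate 1 and KO P7 replicate 3, with mean levels of 5.16, 5.51 and 2.31 after centring per gene. These 7 arrays are called arrays in doubt, and collagen counts that moved by over 1.5 times without them are given both ways. WT P0 replicate 2 also read far above the other WT P0 arrays for Col12a1 (9.73, the others at 7.00 to 8.19), Col5a3 (8.80, the others at 7.54 to 8.02) and Col4a1 (10.32, the others at 9.09 to 9.60). The same held for Col4a2 (10.55, the others at 9.19 to 9.82).

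All 44 collagen genes passed the filter on dim genes, and 43 were above it in every array. The exception was Col10a1, a chain of hypertrophic cartilage. A gene was called where limma's adjusted p over 16865 tested genes was below 0.05. Whether the arrays of compared groups overlap is given chain by chain and was not counted over all genes tested. Across the 10 group means the collagens spanned a median of 0.56 on the log2 scale, against 0.57 for all genes tested. The span exceeded 1 for 11 of 44 collagens (25%) and for 22.4% of all genes. Fibrillar chains spanned a median of 0.78, type IV chains 0.68 and the others 0.50. The lowest of the 10 group means was KO P15 for 6 of 11 fibrillar chains, 0 of 6 type IV chains and 7 of 27 others, and for 12.2% of all genes tested.

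**Figure D1:**
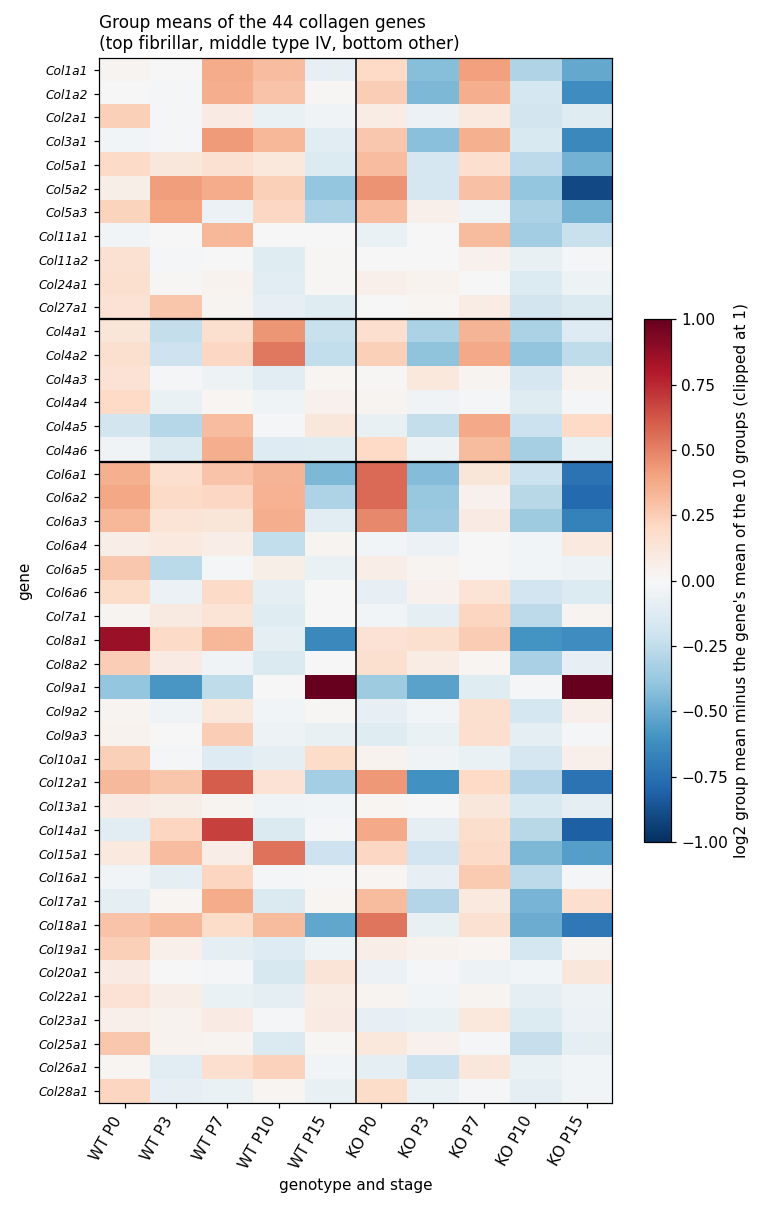
Group means of the 44 collagen genes, each row a gene and each column a genotype and stage, coloured by the log2 distance from the gene's own mean of the 10 groups and clipped at 1. Col9a1 is highest at P15 in both genotypes, Col1a1, Col1a2, Col3a1, the 3 type V chains and Col6a1, Col6a2 and Col6a3 are lowest in KO P15, and Col8a1 is highest in WT P0.

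At day 15 of pregnancy, chains of types I, III, V and VI were lower in KO than in WT glands, and type IV chains were not called. Of 44 collagens 6 were called lower (background 4.33% of all genes tested) and 0 higher (background 6.78%). An unadjusted p below 0.05 by limma was found for 10 of 44 collagens and for 4013 of 16865 genes tested, a similar share. By class, 4 of 11 fibrillar chains, 0 of 6 type IV chains and 2 of 27 others were called, with median differences of -0.22, 0.03 and -0.07 on the log2 scale, against 0.01 for all genes tested. In whole-gland RNA, fewer cells of a type and less RNA per cell cannot be told apart. Centring each array on its median moved the all-gene median at P15 to 0.10 and that of the collagens from -0.06 to 0.02, and 5 collagens were then called lower and 0 higher. Under that centring 12.7% of all genes called at P15 were lower, against 39.0% as deposited and 31.6% after quantile normalisation.

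Col1a2 encodes the alpha 2 chain of type I collagen, the main fibril former of connective tissue. It read 11.15, 11.22, 11.45 and 11.32 in the WT P15 arrays and 10.69, 10.58, 10.76 and 10.59 in the KO arrays. Every KO array lay below the lowest WT array, and the difference was -0.63 (SE 0.13, limma, adjusted p = 0.00195). Its partner chain Col1a1 read 11.11, 11.18, 11.64 and 11.39 against 10.84, 10.80, 11.04 and 10.91. Those arrays did not overlap either, but the difference of -0.43 (SE 0.15) did not pass (adjusted p = 0.0561).

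Col3a1 encodes type III collagen, which makes the fine reticular fibrils of soft tissue together with type I. Its WT P15 arrays read 10.88, 11.02, 11.13 and 11.05 and its KO arrays 10.47, 10.41, 10.69 and 10.36. The groups did not overlap, and KO was lower by 0.54 (difference -0.54, SE 0.13, adjusted p = 0.00692 by limma). KO P15 replicate 3, the array with Ptpn1 in the WT range, was the highest of the KO arrays for Col3a1. It was also the highest for Col1a1, Col1a2, Col5a1, Col5a2, Col6a1 and Col6a2, but not for Col6a3.

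Type V chains join type I and III fibrils and limit their width. Col5a2 read 7.82, 8.02, 8.26 and 8.06 in WT P15 and 7.59, 7.45, 7.69 and 7.38 in KO, a difference of -0.51 (SE 0.13, limma, adjusted p = 0.0109). Col5a1 read 7.91, 7.99, 8.08 and 7.99 in WT and 7.68, 7.56, 7.78 and 7.63 in KO, a difference of -0.33 (SE 0.10, limma, adjusted p = 0.0319). Again no KO array of either chain reached the lowest WT array. The Col5a1 call was lost in 6 of the 37 fits that left out 1 array and after centring on array medians. The Col5a2 call was lost only without WT P15 replicate 3 among those 37 fits.

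The 3 chains of the classic type VI monomer are Col6a1, Col6a2 and Col6a3. At P15 Col6a3 read 9.87, 9.96, 10.04 and 9.96 in WT and 9.48, 9.41, 9.40 and 9.31 in KO, a difference of -0.56 (SE 0.13, limma, adjusted p = 0.00485). Col6a2 read 9.74, 9.79, 9.80 and 9.87 in WT and 9.45, 9.32, 9.47 and 9.09 in KO, a difference of -0.47 (SE 0.13, limma, adjusted p = 0.0137). Neither chain overlapped between genotypes, and the Col6a2 call was lost without KO P15 replicate 4. Col6a1 read 9.63, 9.61, 9.65 and 9.69 in WT and 9.46, 9.31, 9.51 and 9.15 in KO. It too did not overlap, but its difference of -0.29 (SE 0.12) did not pass (adjusted p = 0.142). Without KO P15 replicate 3 all 6 calls held, 8 collagens were called, and the differences were -0.66 for Col1a2, -0.61 for Col3a1, -0.37 for Col5a1, -0.56 for Col5a2, -0.51 for Col6a2 and -0.56 for Col6a3.

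**Figure D2:**
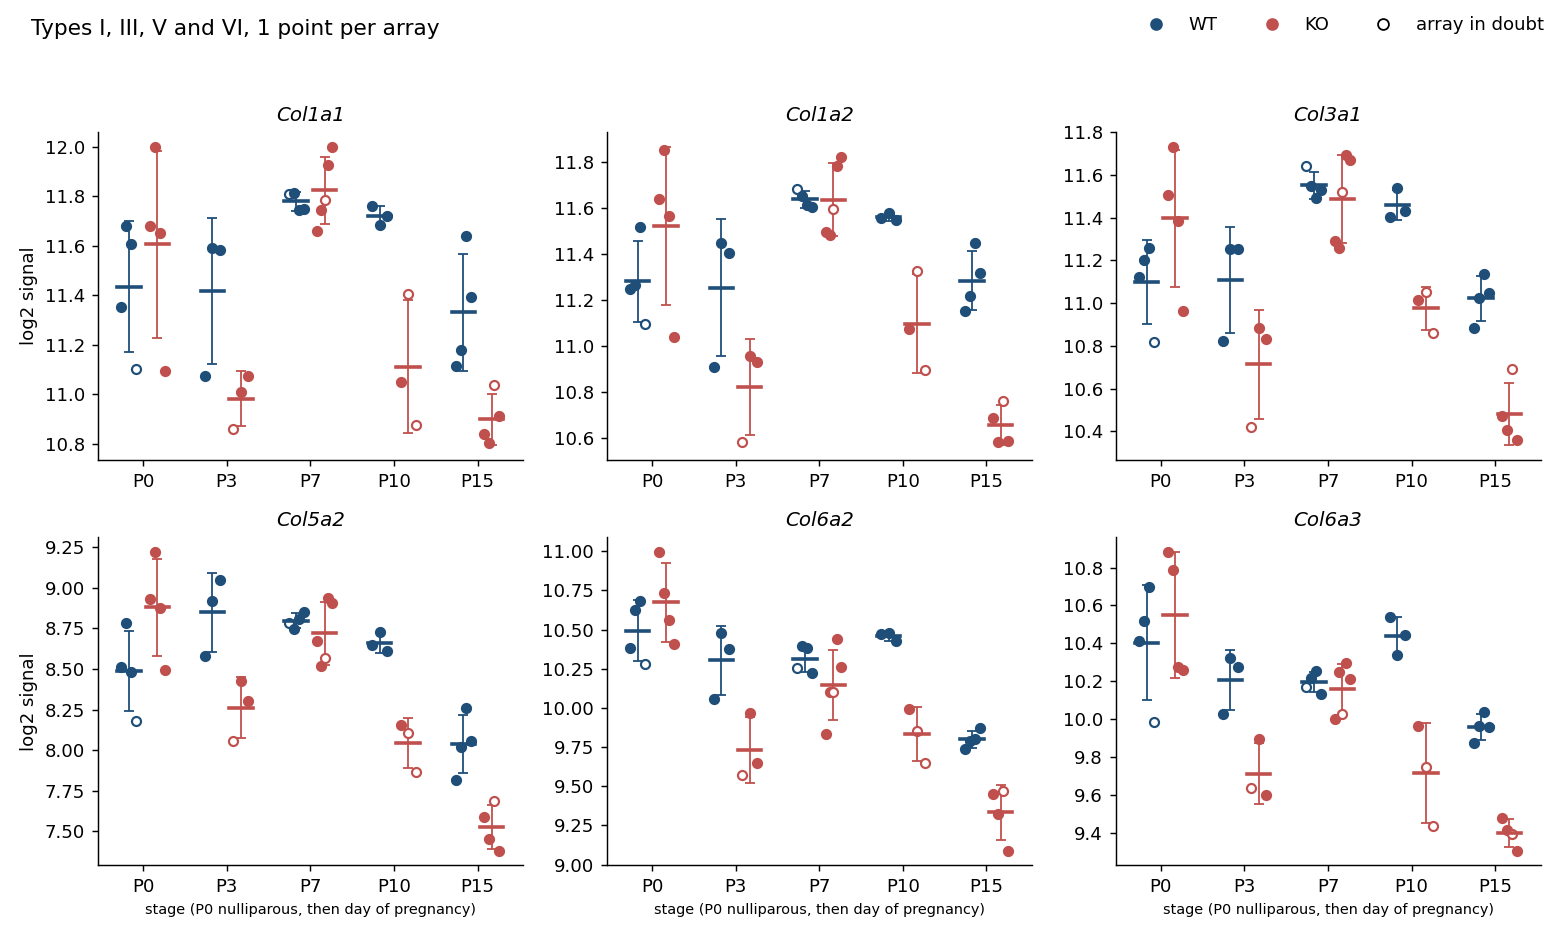
Log2 signal of 6 chains of types I, III, V and VI (y axis, log2) by stage (x axis), 1 point per array, with the group mean as a bar and 1 SD as the error bar. Open points are the 7 arrays in doubt, and at P15 every KO point lies below every WT point in all 6 panels. All but Col1a1 were called at P15 from these same arrays, and such separation was not counted over all genes tested.

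Markers of fibroblasts other than collagens moved with these chains at P15. Of 13 tested markers 7 were called lower in KO (background 4.33% of all genes tested) and 0 higher (background 6.78%). The lower markers included Pi16 (-1.09), Mfap5 (-0.89), Cd34 (-0.88) and Pdgfra (-0.83, the platelet-derived growth factor receptor of fibroblasts). The mean level of the list, centred per gene, ran from -0.38 to -0.23 in WT P15 arrays and from -1.01 to -0.65 in KO. White adipocyte markers were higher in KO at P15, 4 of 12 called, with a mean level of -0.95 to -0.62 in WT and -0.70 to -0.25 in KO. Brown adipocyte markers were higher in KO by their mean level, -1.72 to -1.05 in WT and -0.98 to 0.39 in KO without overlap, and 1 of 7 was called, Cox8b (2.17). Of 9 pericyte and smooth muscle markers 1, Pdgfrb (-0.66), was called lower, and 0 of 16 epithelial and 0 of 14 endothelial markers were called. The counts without the arrays in doubt were 9 of 13 fibroblast markers lower (background 4.87%) and 4 of 12 white adipocyte markers higher (background 7.07%). The part of these differences in the collagen result was not tested.

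Windows of 250 bases upstream of the annotated gene start were read from RefSeq (GRCm38.p6) for 35 of the 44 genes, 38 windows in all. The windows of a type I, a type III and a type VI chain are shown because the chains of these types were low together in KO. They cover chr6:4505368-4505617 (plus strand) for Col1a2, chr1:45311288-45311537 (plus strand) for Col3a1 and chr10:76726045-76726294 (minus strand) for Col6a1, each written 5′ to 3′ and ending at the base before the start. Capitals mark matches on either strand to the CCAAT box, to the TATA-like motif TATAA and to the GC box GGGCGG.
Col1a2: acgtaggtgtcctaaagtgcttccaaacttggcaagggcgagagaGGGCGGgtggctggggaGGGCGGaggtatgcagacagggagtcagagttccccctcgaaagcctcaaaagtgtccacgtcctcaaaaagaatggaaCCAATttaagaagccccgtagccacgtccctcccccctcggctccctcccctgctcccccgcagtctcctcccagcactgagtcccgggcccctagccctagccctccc
Col3a1: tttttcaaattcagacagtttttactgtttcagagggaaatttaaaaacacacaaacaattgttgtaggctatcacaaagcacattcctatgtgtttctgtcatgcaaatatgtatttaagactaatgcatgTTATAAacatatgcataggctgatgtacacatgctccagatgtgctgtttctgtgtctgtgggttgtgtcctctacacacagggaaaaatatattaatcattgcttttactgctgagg
Col6a1: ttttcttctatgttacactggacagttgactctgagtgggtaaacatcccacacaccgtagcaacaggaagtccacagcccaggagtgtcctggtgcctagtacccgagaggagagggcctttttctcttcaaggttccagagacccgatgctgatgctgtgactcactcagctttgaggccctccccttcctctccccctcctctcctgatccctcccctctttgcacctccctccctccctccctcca
Col1a2 holds CCAAT at 109 to 105 bases before the start and GGGCGG at 205 to 200 and at 188 to 183. Col3a1 holds TATAA on each strand, at 117 to 113 and 118 to 114, which overlap each other. The Col6a1 window holds no match. Over all 32851 windows of the same length CCAAT was in 33.8%, TATAA in 22.8% and GGGCGG in 32.7%, and over the 38 collagen windows in 34.2%, 18.4% and 57.9%. These are matches of letters and say nothing of binding.

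At day 10, some fibrillar and type VI chains, the common type IV chains and the multiplexins were called lower in KO than in WT. KO was called lower for 13 of 44 collagens (background 9.13%) and higher for 0 (background 8.1%). The calls were 6 of 11 fibrillar chains, 2 of 6 type IV chains and 5 of 27 others, and the class medians were -0.37, -0.20 and -0.13, against -0.03 for all genes. Every collagen called at P15 was also called at P10, which is 6 of 6 P15 calls (100%) and 6 of 13 P10 calls (46.2%). The same overlap was not counted over all genes tested, and KO P10 replicates 2 and 3 had high lymphocyte markers. Centring the arrays moved the all-gene median at P10 from -0.03 to -0.17 and that of the collagens from -0.16 to -0.30, with 21 called lower and 0 higher. The share of lower genes among all called at P10 was 53.0% as deposited, 63.6% after quantile normalisation and 80.8% after centring.

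These calls rest on 3 KO arrays, of which replicates 2 and 3 carried lymphocyte RNA. All 9 B cell and 8 T cell markers tested were called higher in KO at P10 (background 8.1%), with medians of 2.82 and 2.48. The joint marker level was 3.71 and 3.65 in KO replicates 2 and 3, -0.03 in KO replicate 1 and -0.30 to -0.21 in WT. Without the arrays in doubt the comparison had 3 WT arrays and KO replicate 1, and 0 of 44 collagens were called (11 at an unadjusted p below 0.05 by limma), with 0.00593% of all genes called lower and 0% higher. With lymphocyte and muscle scores as covariates, with adipocyte and epithelial scores as covariates, or with the P10 arrays fitted alone, 0 were called as well. KO replicate 1 lay below all 3 WT arrays for 30 of 44 collagens, while the same held for 26.6% of all genes tested. The 13 called were among the 30, but the fit that called them included these same arrays, so this is no separate check. Markers of endothelium (7 of 14 lower), pericytes (4 of 9 lower) and white adipocytes (5 of 12 lower) also differed at P10 (background 9.13% lower). Of the fibroblast list only Fbln2 (-0.74) and Gsn (-0.52) were called, and of the epithelial list only Krt7 (-0.85) and Krt18 (-0.72). The part of each list in the collagen result was not tested.

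Of the 5 stages, P10 was the one at which type IV chains were called between genotypes. Col4a1 and Col4a2, the chains of the common type IV network, are neighbours read in opposite directions from a shared start region. Col4a2 read 10.17, 10.11 and 10.28 in WT and 9.59, 9.02 and 9.21 in KO, a difference of -0.91 (SE 0.18, limma, adjusted p = 0.00112). Col4a1 read 9.86, 10.00 and 9.98 in WT and 9.51, 9.01 and 9.03 in KO, a difference of -0.76 (SE 0.19, limma, adjusted p = 0.00623). The lymphocyte-rich replicates 2 and 3 were the lowest, and KO replicate 1 was also below every WT array for both chains. Against KO replicate 1 alone, without the arrays in doubt, the differences were -0.60 and -0.43. At P15 the differences were -0.01 (SE 0.16) for Col4a2 and 0.10 (SE 0.17) for Col4a1, with overlapping arrays.

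The multiplexins Col15a1 and Col18a1 had the largest collagen differences at P10 with Col4a2. Endostatin, an inhibitor of vessel growth, is the tail fragment of the Col18a1 chain. Col15a1 read 10.44, 10.31 and 10.44 in WT and 9.75, 9.13 and 9.31 in KO, a difference of -0.99 (SE 0.20, limma, adjusted p = 0.00135). Col18a1 read 8.83, 8.71 and 8.76 in WT and 8.25, 7.81 and 7.80 in KO, a difference of -0.81 (SE 0.14, limma, adjusted p = 0.00054). Neither overlapped, and replicate 1 was again the highest KO array. At P15 their differences were -0.35 (adjusted p = 0.235) and -0.20 (adjusted p = 0.373) by limma. The P10 differences were -0.64 and -0.52 without the arrays in doubt and did not pass.

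**Figure D3:**
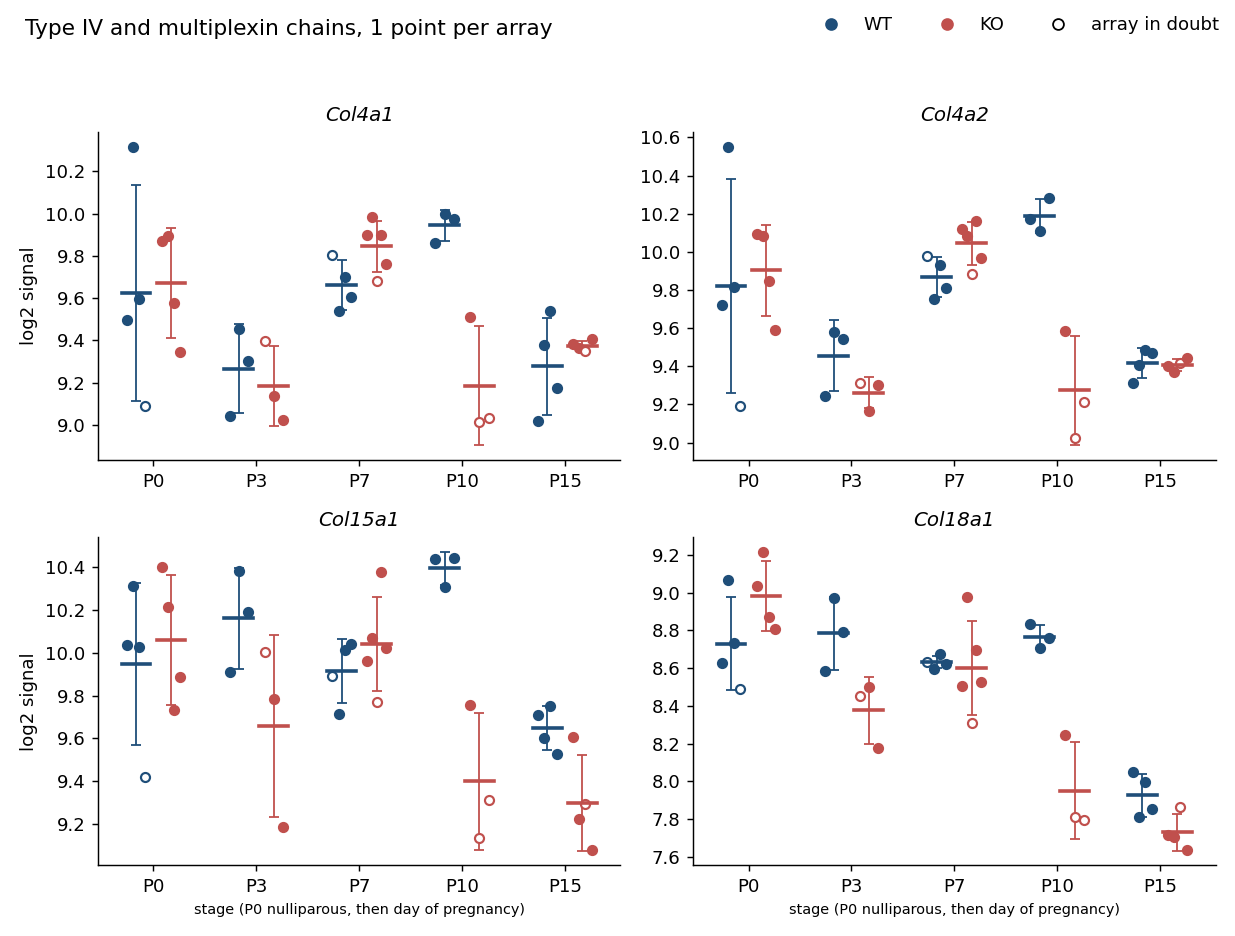
Log2 signal of 2 type IV chains and 2 multiplexins (y axis, log2) by stage (x axis), 1 point per array, group mean as a bar and 1 SD as the error bar. Open points are the arrays in doubt. At P10 the 3 KO points lie below the 3 WT points in each panel, while at P15 the genotypes overlap. For Col18a1 that P15 overlap is with KO replicate 3 alone, whose Ptpn1 was in the WT range.

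Among fibrillar chains at P10, Col5a2 read 8.65, 8.73 and 8.61 in WT and 8.15, 8.11 and 7.87 in KO (difference -0.62, SE 0.15, adjusted p = 0.00575 by limma). Col1a1 read 11.76, 11.68 and 11.72 against 11.05, 11.40 and 10.88 (difference -0.61, SE 0.17). Col3a1 read 11.40, 11.54 and 11.43 against 11.01, 11.05 and 10.86 (difference -0.48, SE 0.15). No KO array of these chains reached a WT array, and KO replicate 3 was the lowest for all 3. Col1a2 read 11.56, 11.58 and 11.55 against 11.07, 11.33 and 10.90 (difference -0.46, SE 0.15). Col5a1 (-0.37) and Col11a1 (-0.35, a fibril-core chain best known from cartilage) were also called.

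Of the 6 type VI chains, Col6a1, Col6a2 and Col6a3 were called lower in KO at P10. Col6a3 read 10.54, 10.34 and 10.44 in WT and 9.96, 9.74 and 9.43 in KO (difference -0.73, SE 0.15, adjusted p = 0.00154 by limma). Col6a2 read 10.47, 10.48 and 10.43 against 9.99, 9.85 and 9.65 (difference -0.63, SE 0.14). Col6a1 read 10.44, 10.42 and 10.44 against 10.03, 9.82 and 9.79 (difference -0.55, SE 0.14). Every KO array lay below every WT array for each of these 3 chains, and replicate 1 was the highest KO array. The other type VI chains, Col6a4 (0.22), Col6a5 (-0.08) and Col6a6 (-0.10), were not called and their arrays overlapped. Without KO P10 replicate 3 the count of called collagens fell from 13 to 6.

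At P0, P3 and P7 no collagen was called between genotypes. The backgrounds of calls at P0 were 0.421% lower and 1.27% higher. An unadjusted p below 0.05 by limma was found for 8 of 44 collagens and for 3504 of 16865 genes tested, a similar share. Col5a2 read 8.51, 8.78, 8.48 and 8.18 in WT P0 and 8.93, 9.22, 8.87 and 8.49 in KO P0, overlapping, with a difference of 0.39 (adjusted p = 0.111). Col8a1, a short-chain collagen of vessel walls and other matrices, differed by -0.72 at P0 (adjusted p = 0.0697), with WT arrays at 7.66, 8.60, 7.37 and 8.44 and KO arrays at 7.27, 7.45, 7.47 and 6.99. Without WT P0 replicate 2 there were 4 calls at P0, and without WT P0 replicate 3, KO P0 replicate 4 or WT P3 replicate 2 there was 1.

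At P3 the backgrounds of calls were 0.113% lower and 0.00593% higher. An unadjusted p below 0.05 by limma was found for 13 of 44 collagens, all lower in KO, and for 1198 of 16865 genes tested. Col6a1 read 10.04, 10.46 and 10.29 in WT and 9.56, 9.87 and 9.54 in KO, a difference of -0.60 (adjusted p = 0.109). Col5a2 read 8.58, 8.92 and 9.05 against 8.06, 8.42 and 8.30, a difference of -0.59 (adjusted p = 0.179). Neither overlapped, and neither passed over all genes. Without KO P3 replicate 2 there were 2 calls.

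At P7 the backgrounds of calls were 0.00593% lower and 0% higher. An unadjusted p below 0.05 by limma was found for 0 of 44 collagens and for 443 of 16865 genes tested. Class medians at P7 lay at 0.02 for fibrillar chains, 0.08 for type IV chains and -0.03 for the others. Averaged over the 5 stages, 9 of 44 collagens were called lower (background 1.13%) and 0 higher (background 1.3%), namely Col1a1 (-0.25), Col1a2 (-0.26), Col3a1 (-0.24), Col5a2 (-0.28), Col6a1 (-0.28), Col6a2 (-0.33), Col6a3 (-0.33), Col15a1 (-0.32) and Col18a1 (-0.24). Of these calls 1, Col6a3, held without the arrays in doubt. Leaving out WT P3 replicate 2 or KO P10 replicate 3 left 4 calls each.

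**Figure D4:**
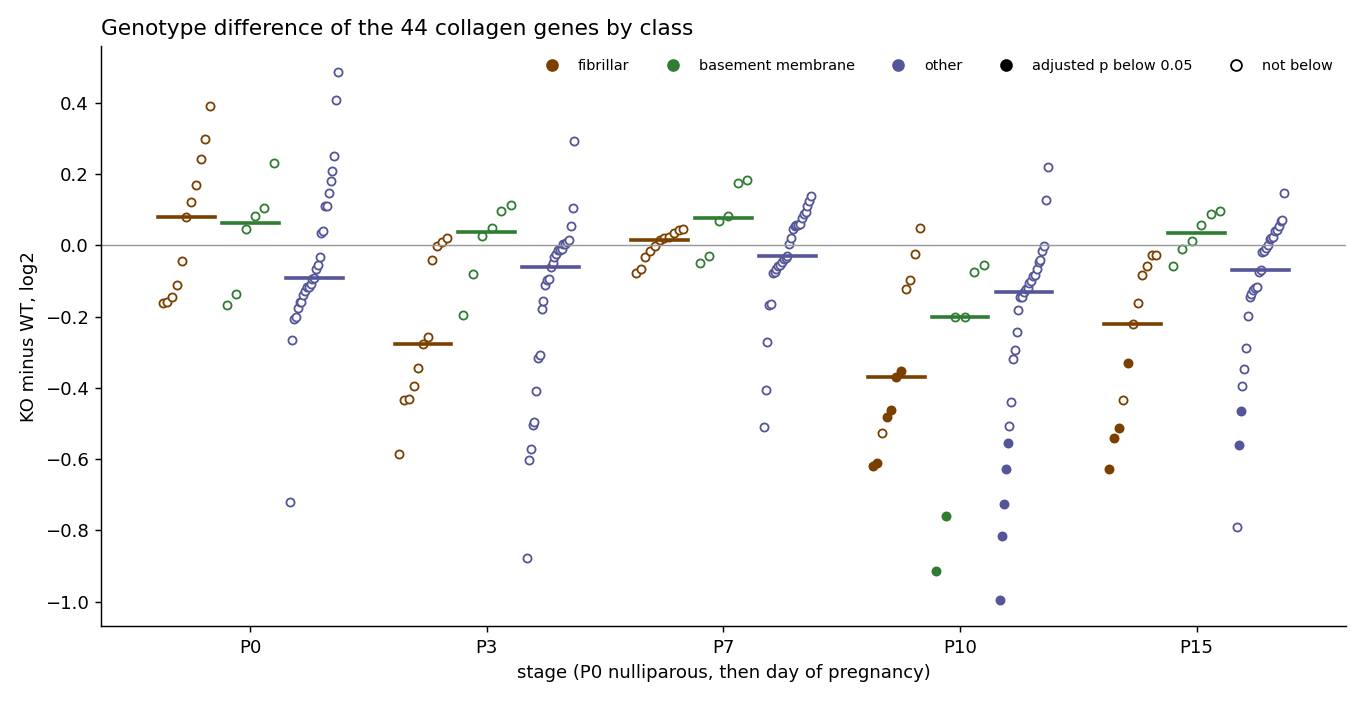
KO minus WT difference in log2 (y axis) of the 44 collagens at each stage (x axis), grouped by class, 1 point per gene with the class median as a bar. Filled points passed an adjusted p of 0.05, which no point did at P0, P3 or P7, 13 did at P10 and 6 did at P15, all of them below 0.

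Within a genotype each stage was set against the same P0 arrays, so these comparisons share their reference. From P0 to P15, 16 of 44 collagens fell (background 27.3%) and 2 rose (background 21.6%) in WT, and 16 fell (background 21.8%) and 2 rose (background 19.5%) in KO. Of the 18 called in each genotype 12 were the same genes. The median change of fibrillar chains was -0.15 in WT and -0.71 in KO, that of type IV chains -0.14 and -0.15, and that of the others -0.12 in each genotype, against -0.06 and 0.01 for all genes. Centring the arrays moved the all-gene medians to -0.25 in WT and -0.13 in KO and the counts to 31 lower and 1 higher in WT and 25 lower and 1 higher in KO. The WT count of 18 was 4 with adipocyte and epithelial scores as covariates and 11 with the compared groups alone, and without the arrays in doubt there were 17 calls in WT and 18 in KO.

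Of the 3 classes, fibrillar chains in KO had the lowest median change from P0 to P15. Over the same interval the mean level of the fibroblast markers went from 0.08 to 0.59 in KO P0 arrays to -1.01 to -0.65 in KO P15 arrays. In KO 13 of 13 were called lower (background 21.8%), and in WT 7 of 13 (background 27.3%). The KO falls included Clec3b (-1.91), Gsn (-1.65), Dpt (-1.55) and Pdgfra (-1.52). The part of the fibroblast markers in the fall of these chains was not tested. Col5a2 fell by 1.35 in KO (SE 0.13, limma, adjusted p = 1.98e-09) and by 0.45 in WT (SE 0.13, limma, adjusted p = 0.0058). Col3a1 read 11.12, 11.20, 11.26 and 10.82 in WT P0 and 11.50, 11.73, 11.38 and 10.97 in KO P0. Its KO P15 arrays, given above, all lay below these KO arrays, and the change was -0.92 in KO, while WT arrays overlapped and the change was not called. Col1a2 read 11.25, 11.27, 11.52 and 11.09 in WT P0 and 11.64, 11.85, 11.56 and 11.04 in KO P0, and changed by -0.87 in KO. Col1a1 read 11.68, 12, 11.65 and 11.09 in KO P0 and changed by -0.71. Col5a1 read 8.23, 8.41, 8.51 and 8.12 in WT P0 and 8.53, 8.74, 8.38 and 8.12 in KO P0, and fell by 0.33 in WT and 0.78 in KO. Col5a3 fell by 0.53 in WT and 0.77 in KO, and Col2a1, the cartilage fibril chain, by 0.27 and 0.19.

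The change from P0 to P15 itself differed between genotypes for 7 of 44 collagens, all lower in KO (background 5.3%), with 0 higher (background 4.8%). These were Col14a1 (-1.28), Col5a2 (-0.90), Col1a2 (-0.87), Col3a1 (-0.84), Col6a3 (-0.71), Col6a2 (-0.65) and Col5a1 (-0.45). The KO P0 means of these chains stood above the WT P0 means by 0.12 to 0.49 without any call, so part of each value is the P0 difference. Without the arrays in doubt the Col5a1 call was lost and the other 6 calls held, and the Col14a1 call was lost with adipocyte and epithelial covariates.

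Type VI chains fell with stage in both genotypes. Col6a1 read 10.34, 10.57, 10.69 and 10.18 in WT P0 and 11.02, 10.64, 10.55 and 10.41 in KO P0, and fell by P15 by 0.80 (SE 0.12) in WT and by 1.30 (SE 0.12) in KO. Col6a2 read 10.38, 10.63, 10.69 and 10.28 in WT P0 and 11, 10.74, 10.56 and 10.41 in KO P0, and fell by 0.69 and 1.34. Col6a3 read 10.41, 10.52, 10.70 and 9.98 against 10.88, 10.79, 10.27 and 10.26 at P0, and fell by 0.45 and 1.15. The P0 and P15 arrays of Col6a1 and Col6a2 did not overlap in either genotype, while those of Col6a3 overlapped in WT. The remaining chains Col6a4, Col6a5 and Col6a6 lie next to each other in the genome, and of these Col6a5 was called at P15, in WT, where it fell by 0.34. Col18a1 fell by 0.80 in WT and 1.25 in KO, and Col15a1 by 0.76 in KO.

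Type IV chains changed in opposite directions. Col4a2 read 9.72, 10.55, 9.82 and 9.19 in WT P0 and 10.09, 10.08, 9.85 and 9.59 in KO P0, against 9.31, 9.41, 9.48 and 9.47 in WT P15 and 9.40, 9.37, 9.42 and 9.44 in KO P15. It fell by 0.40 in WT, where the stages overlapped, and by 0.49 in KO, where they did not. The WT value includes WT P0 replicate 2, which read 10.55 while the other WT P0 arrays read 9.19 to 9.82. Col4a5 encodes a chain of the type IV networks of kidney and of epithelia. It read 6.41, 6.82, 6.58 and 6.82 in WT P0, 7.44, 6.97, 7.07 and 7.13 in WT P7 and 6.94, 7.07, 6.96 and 6.84 in WT P15, a rise of 0.49 by P7 and of 0.29 by P15. In KO it read 6.61, 6.95, 6.82 and 6.68 at P0, 7.25, 7.23, 7.02, 7.09 and 7.52 at P7 and 6.92, 7.14, 6.95 and 7.15 at P15. Those rises were 0.46 and 0.28, and the P7 arrays lay above all P0 arrays in each genotype. The P7 calls held under each of the 11 alternatives other than leaving out 1 array, whereas both P15 rises were lost after quantile normalisation, after centring, and with adipocyte and epithelial scores as covariates (-0.16 in WT and 0.04 in KO).

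Col9a1, a chain of the fibril-associated type IX collagen best known from cartilage, had the largest rise of any collagen. It read 7.47, 7.74, 7.30 and 7.73 in WT P0 and 9.08, 9.11, 8.84 and 9.27 in WT P15, an increase of 1.52 (SE 0.13, limma, adjusted p = 1.13e-10). In KO it read 7.67, 7.75, 7.61 and 7.35 at P0 and 8.98, 9.13, 8.79 and 9.34 at P15, an increase of 1.47 (SE 0.13, limma, adjusted p = 2.8e-10). The stages did not overlap in either genotype, and at P15 the genotypes overlapped and differed by -0.01 (SE 0.13). In WT it had risen by 0.39 at P10, with arrays at 7.63, 7.98 and 8.25. The other chains of type IX, Col9a2 and Col9a3, were not called at P15 in either genotype. All 9 tested milk protein genes also rose from P0 to P15 in each genotype, as did 9 of 16 pan-epithelial markers in WT (21.6% of all genes rose) and 8 in KO (19.5% of all genes rose), and their part in the Col9a1 rise was not tested.

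Col8a1 fell with stage, from WT P0 arrays at 7.66, 8.60, 7.37 and 8.44 to WT P15 arrays at 6.31, 6.76, 6.59 and 6.37, a change of -1.51 (SE 0.21, limma, adjusted p = 8.81e-07). In KO the P15 arrays read 6.41, 6.51, 6.64 and 6.55 against the KO P0 values above, a change of -0.77 (SE 0.21, limma, adjusted p = 0.00397). P0 and P15 did not overlap in either genotype, and the genotypes differed at P15 by 0.02 (SE 0.21). It was also called lower in WT at P3 (-0.68) and P10 (-0.96) and in KO at P10 (-0.74). The KO call at P15 was lost with adipocyte and epithelial covariates. White adipocyte markers fell over the same interval, 12 of 12 in WT (background 27.3%) and 10 of 12 in KO (background 21.8%), and their part was not tested.

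**Figure D5:**
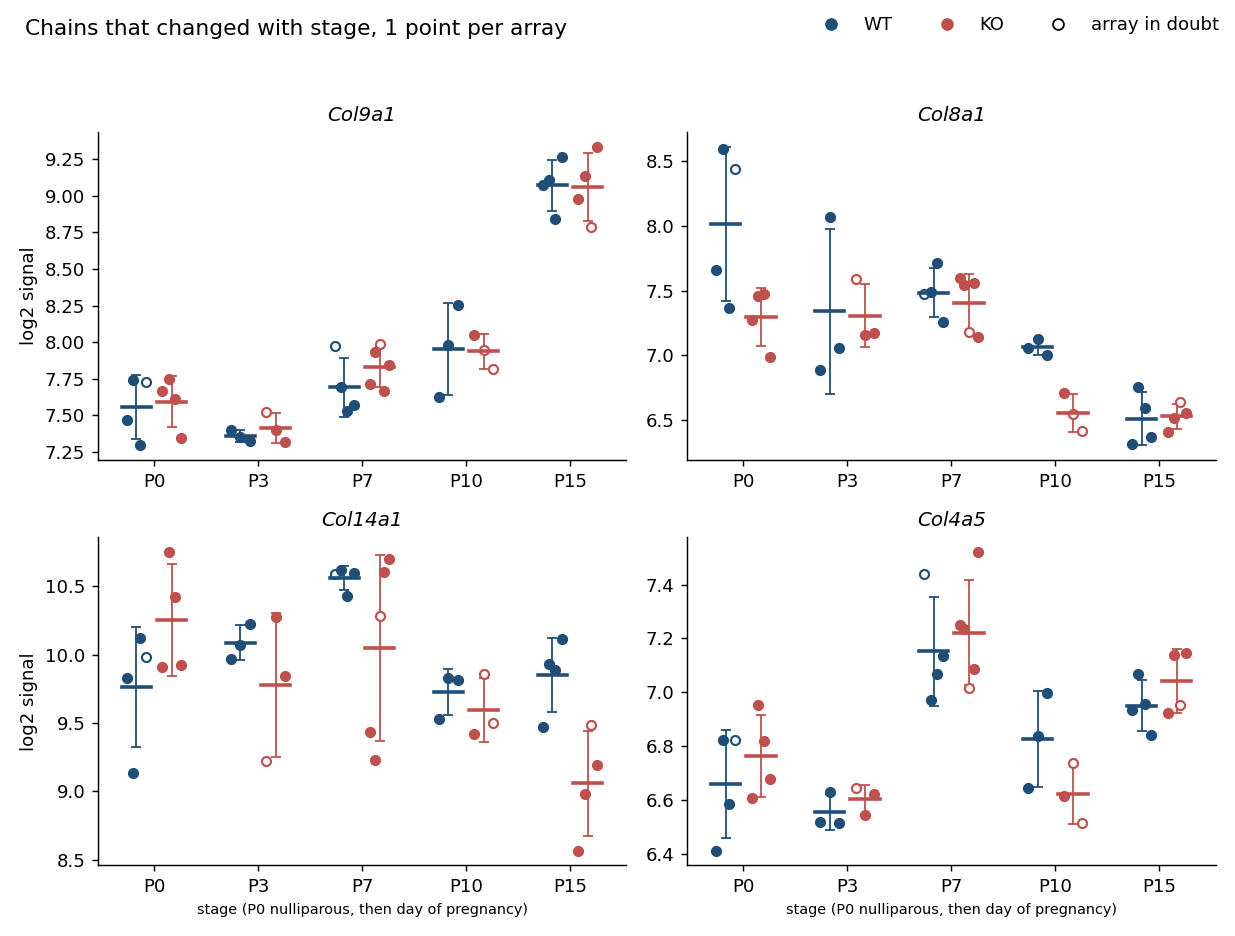
Log2 signal of 4 collagens that changed with stage (y axis, log2) by stage (x axis), 1 point per array, group mean as a bar and 1 SD as the error bar. Col9a1 is at 8.79 or above in the P15 arrays and at 8.25 or below in all others. Col14a1 is lower in KO than in WT at P15, where only KO replicate 3, an array in doubt, overlaps with WT.

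The upstream windows of Col18a1 and Col8a1, the chains outside the fibrillar class and types IV and VI that were called lower at P15 in both genotypes, are shown for comparison with the windows of the fibrillar chains. They cover chr10:77166531-77166780 (minus strand) and chr16:57754738-57754987 (minus strand) of GRCm38.p6, each before the outermost annotated start, with capitals as before.
Col18a1: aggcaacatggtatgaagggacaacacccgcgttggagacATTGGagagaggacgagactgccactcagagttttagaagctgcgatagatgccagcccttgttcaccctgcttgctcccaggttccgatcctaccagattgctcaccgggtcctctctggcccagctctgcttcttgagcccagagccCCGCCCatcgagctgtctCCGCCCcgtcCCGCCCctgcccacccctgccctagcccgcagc
Col8a1: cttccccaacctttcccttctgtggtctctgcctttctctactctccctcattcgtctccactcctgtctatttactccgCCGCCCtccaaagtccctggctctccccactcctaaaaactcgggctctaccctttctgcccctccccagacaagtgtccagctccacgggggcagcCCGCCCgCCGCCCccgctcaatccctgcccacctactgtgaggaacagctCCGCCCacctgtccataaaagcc
Both hold GGGCGG on the minus strand of the window, Col18a1 at 61 to 56, 43 to 38 and 33 to 28 bases before the start and Col8a1 at 170 to 165, 73 to 68, 66 to 61 and 23 to 18. Col18a1 also holds CCAAT on that strand at 210 to 206. No match overlapped another kind of match.

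Fibril-associated chains of types XII and XIV bind the surface of type I fibrils. Col14a1 read 9.91, 10.75, 10.42 and 9.92 in KO P0 and 8.57, 8.98, 9.49 and 9.20 in KO P15, a change of -1.19 (SE 0.27, limma, adjusted p = 0.000605) with no overlap. In WT it read 9.83, 9.13, 10.12 and 9.98 at P0 and 9.47, 9.93, 9.88 and 10.11 at P15, which overlap. The genotype difference at P15 was -0.79 (SE 0.27) and did not pass (adjusted p = 0.0558 by limma). The only KO P15 array above the lowest WT P15 array (9.47) was replicate 3 (9.49), whose Ptpn1 was in the WT range. Col12a1 changed by -1.17 (SE 0.35) from P0 to P15 in KO, from arrays at 8.37, 8.46, 8.31 and 7.34 to arrays at 6.82, 6.8, 7.19 and 6.99.

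At P7, 4 collagens fell (background 13.8%) and 6 rose (background 15.5%) in WT. The rises were Col14a1 (0.79, arrays at 10.59, 10.62, 10.43 and 10.60), Col4a5 (0.49), Col17a1 (0.46), Col3a1 (0.45, arrays at 11.64, 11.55, 11.49 and 11.53), Col1a2 (0.36, arrays at 11.68, 11.65, 11.61 and 11.60) and Col11a1 (0.36). Col17a1 is the transmembrane collagen of hemidesmosomes in basal epithelium. The falls were Col10a1 (-0.37), Col19a1 (-0.33), Col8a2 (-0.28) and Col22a1 (-0.21). Col10a1 read 4.91, 5.09, 4.79 and 5.04 in WT P7, close to the dim-gene filter value of 4.96. After centring 9 fell and 4 rose, and after quantile normalisation 7 fell and 5 rose. The fit that left out the arrays in doubt made 3 calls in all. Leaving out WT P7 replicate 1, 3 or 4 left 6 calls, and leaving out replicate 2 left 5.

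In KO at P7, 4 fell (background 8.34%) and 5 rose (background 7.84%). Col6a2 (-0.53), Col6a1 (-0.44), Col6a3 (-0.39) and Col18a1 (-0.38) fell. Col6a1 read 9.93, 10.15, 10.13, 10.54 and 10.31 and Col6a2 9.84, 10.10, 10.10, 10.44 and 10.26 at KO P7, overlapping with KO P0. Col6a3 read 10.00, 10.25, 10.03, 10.30 and 10.21, also overlapping. Col4a5 (0.46), Col11a1 (0.39), Col9a3 (0.29), Col7a1 (0.24, the anchoring fibril chain) and Col9a2 (0.24) rose. After centring 5 fell and 2 rose, after quantile normalisation 4 fell and 3 rose, without KO P0 replicate 1 there were 4 calls, and without the arrays in doubt 8.

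From P0 to P3, 4 collagens fell (background 6.5%) and 0 rose (background 11.6%) in WT, whereas 11 fell (background 11%) and 0 rose (background 7.8%) in KO. In WT these were Col8a1 (-0.68), Col6a5 (-0.54), Col4a4 (-0.26) and Col2a1 (-0.25). Col6a5 read 6.98, 6.64, 6.87 and 7.17 in WT P0 and 6.67, 6.44 and 6.01 in WT P3, with overlap. Col4a4 read 6.42, 6.42, 6.64 and 6.56 against 6.30, 6.32 and 6.11, without overlap. There were 0 calls without WT P3 replicate 3 and 7 without WT P0 replicate 2.

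In KO the chains that fell by P3 were Col6a1 (-1.0), Col6a2 (-0.94), Col6a3 (-0.84), Col1a2 (-0.70), Col3a1 (-0.68), Col4a2 (-0.64), Col1a1 (-0.62), Col5a2 (-0.62), Col17a1 (-0.61), Col18a1 (-0.61) and Col5a1 (-0.48). Col6a2 read 9.57, 9.97 and 9.65 and Col6a3 9.64, 9.90 and 9.60 in KO P3, all below KO P0. Col1a2 read 10.58, 10.96 and 10.93, Col3a1 10.42, 10.89 and 10.83 and Col1a1 10.86, 11.01 and 11.08, likewise below KO P0. Without the arrays in doubt, which removes the muscle-rich replicate 1, 12 collagens were called in KO at P3. Col4a2 read 9.31, 9.17 and 9.30, also with no overlap. The change from P0 to P3 differed between genotypes for Col5a2 (-0.98), Col6a1 (-0.81) and Col6a2 (-0.75), 3 of 44 lower (background 1.67%) and 0 higher (background 0.302%), and without the arrays in doubt for 0. Without WT P0 replicate 2 that count was 10, without WT P0 replicate 3 it was 5, without KO P0 replicate 4, WT P3 replicate 1 or KO P3 replicate 2 it was 7, and without WT P0 replicate 4, WT P3 replicate 2 or 3, or KO P3 replicate 3 it was 1. For the change from P0 to P7, 0 of 44 differed (backgrounds 0.296% lower and 0.0237% higher), with 1 call without WT P0 replicate 2. The unadjusted p of that difference was below 0.05 by limma for 7 of 44 collagens and for 2568 of 16865 genes tested, a similar share.

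From P0 to P10, 10 collagens fell (background 9.71%) and 1 rose (background 11.7%) in WT, while 23 fell (background 16.3%) and 0 rose (background 14.4%) in KO. The WT falls were Col8a1 (-0.96), Col25a1 (-0.41), Col8a2 (-0.39), Col19a1 (-0.37), Col6a4 (-0.31), Col2a1 (-0.30), Col11a2 (-0.28), Col4a3 (-0.26), Col4a4 (-0.24) and Col22a1 (-0.24). Col4a3 read 6.34, 6.5, 6.39 and 6.48 in WT P0 and 6.07, 6.14 and 6.28 in WT P10, and Col6a4 5.99, 5.89, 5.93 and 5.93 against 5.57, 5.63 and 5.67. Neither overlapped, and 9 of the 10 falls were smaller than 0.5. Leaving out WT P10 replicate 1 or 2 left 4 calls, leaving out WT P0 replicate 4 left 7, and leaving out the arrays in doubt left 7.

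In KO at P10 the falls were 8 of 11 fibrillar chains, 3 of 6 type IV chains and 12 of 27 others. The largest were Col18a1 (-1.03), Col5a2 (-0.84), Col6a2 (-0.84), Col6a3 (-0.84), Col6a1 (-0.78), Col17a1 (-0.78), Col8a1 (-0.74), Col15a1 (-0.66), Col4a2 (-0.63), Col5a3 (-0.62), Col5a1 (-0.58) and Col4a6 (-0.53). Col5a3 read 8.34, 8.49, 7.89 and 7.77 in KO P0 and 7.54, 7.62 and 7.35 in KO P10, and Col4a6 6.25, 6.88, 6.87 and 6.64 against 6.19, 6.11 and 6.10, without overlap. The others were Col1a1 (-0.50), Col4a1 (-0.49), Col8a2 (-0.48), Col1a2 (-0.43), Col3a1 (-0.42), Col25a1 (-0.34), Col11a1 (-0.28), Col16a1 (-0.28), Col2a1 (-0.26), Col19a1 (-0.24) and Col7a1 (-0.23). Centring moved the all-gene median of this comparison from -0.05 to -0.21 and the count to 35. There were 4 calls without the arrays in doubt and 13 without KO P10 replicate 3.

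The change from P0 to P10 differed between genotypes for 12 of 44, all lower in KO (background 5.92%), and for 0 higher (background 4.67%). These were the 13 chains called between genotypes at P10 except Col11a1, from Col15a1 (-1.11), Col18a1 (-1.07), Col5a2 (-1.01) and Col4a2 (-1.0) to Col5a1 (-0.49). Without KO P10 replicate 3 the count was 7, and without the arrays in doubt 0. An F test of a genotype difference that varied over the 5 stages called the same 12 chains (background 18%), 5 of 11 fibrillar, 2 of 6 type IV and 5 of 27 others.

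Smaller changes from P0 to P15 were found in WT for Col27a1 (-0.26), Col28a1 (-0.29), Col19a1 (-0.28), Col8a2 (-0.26) and Col25a1 (-0.25). Over the 18 comparisons 38 of 44 collagens were called at least once. The same count was not made over all genes, and P15 against P0 in WT alone called 8238 of 16865 genes. The 6 never called were Col6a6, Col13a1, Col20a1, Col23a1, Col24a1 and Col26a1, and 20 of the 44 spanned at most 0.5 on the log2 scale over the 10 group means, with a median span of 0.34.

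Genes that fold, process, bind and degrade collagen were taken as 7 lists. Their counts stand against all genes tested, of which 9.13% were lower and 8.1% higher in KO at P10 and 4.33% and 6.78% at P15. From P0 to P15, 27.3% of all genes fell and 21.6% rose in WT, and 21.8% fell and 19.5% rose in KO. Without the arrays in doubt 0 genes of any of the 7 lists were called at P10, so each P10 list count below rests on fits that include the lymphocyte-rich arrays, and unadjusted p-values below 0.05 by limma numbered 0 to 4 in a list. For folding and modification, 4 of 20 tested genes were lower in KO at P10 and 0 higher, namely P3h4 (-0.49), Serpinh1 (-0.48, the collagen chaperone HSP47), P3h1 (-0.43) and Crtap (-0.30), and at P15 Crtap alone was lower (-0.25). From P0 to P15, 9 of 20 fell and 7 rose in WT, and 11 fell and 5 rose in KO. The prolyl hydroxylase subunits P4ha2 (-1.63 in WT, -1.90 in KO) and P4ha1 (-1.16 in WT, -1.36 in KO), which stabilise the triple helix, were among the falls. For processing and cross-linking, 3 of 13 were lower in KO at P15 and 0 higher. These were the procollagen C-proteinase enhancers Pcolce2 (-1.04) and Pcolce (-0.61) and the lysyl oxidase family member Loxl1 (-0.71). Pxdn, which cross-links type IV collagen, was the 1 of 13 lower at P10 (-0.69).

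Among proteoglycans and glycoproteins that bind fibrils, 4 of 19 were lower in KO at P15 and 0 higher, Fn1 (fibronectin, -1.10), Tnxb (-0.82), Dcn (decorin, -0.37) and Bgn (biglycan, -0.35). At P10, 3 of 19 were lower, Matn2 (-0.77), Sparcl1 (-0.72) and Postn (-0.31). Fmod, fibromodulin, rose from P0 to P15 by 2.04 in WT and 1.72 in KO, while Thbs2 changed by -1.17 and -2.50. Dcn, Lum and Dpt are also in the fibroblast list. Of 17 basement membrane partners 11 were lower in KO at P10 and 2 at P15, with 0 higher at either. At P10 these included Frem1 (-1.11), Nid2 (-0.94), Hspg2 (perlecan, -0.89) and Lamb1 (-0.83), and at P15 Frem1 (-0.66) and Nid1 (-0.64).

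Of 11 genes listed as collagen receptors 3 were lower in KO at P15 and 0 higher. These were Ddr2 (-0.59, a receptor tyrosine kinase for fibrillar collagen), Mrc2 (-0.49, which takes up collagen fragments) and Dag1 (-0.25). Dag1 encodes dystroglycan, a laminin receptor rather than a collagen receptor, and is counted in this list at both stages. At P10, 4 of the listed genes were lower, among them Dag1 (-0.56), and 1 was higher, Lair1 (0.92), an inhibitory receptor of leukocytes. For degradation, 0 of 17 were called at P15, with Reck at -0.52 (adjusted p = 0.0582 by limma) and Timp3 at -0.62 (adjusted p = 0.0728 by limma). An unadjusted p below 0.05 by limma was found for 6 of the 17 and for 4013 of 16865 genes tested. At P10 Timp4 (-1.10) and Mmp14 (-0.46) were lower and Mmp8 (0.57) was higher. From P0 to P15, 13 of 17 fell (background 21.8%) and 1 rose (background 19.5%) in KO. In WT 6 fell (background 27.3%) and 2 rose (background 21.6%). In fibrosis signalling, 3 of 19 were lower in KO at P15, Pdgfra (-0.83), Pdgfrb (-0.66) and Smad4 (-0.22), and at P10 5 were lower and 1, Tgfb1 (0.61), higher.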

How the data were processed

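Total RNA was amplified, labelled as sense-strand cDNA and hybridised to Affymetrix arrays, per the labels' protocols. The authors deposited 1 log2 value per probe set and array, and the submitters' processing notes name affy. How background was corrected and probes were summarised and normalised is not stated in these sources. Array medians ran from 6.52 to 6.79. Probe sets with exactly 1 symbol (21640 of 34760) gave 19937 genes. Of 2 collagens with 2 probe sets, Col6a5 and Col6a6, the brighter was used. Genes above 4.96, the 25th percentile, in at least 3 arrays were tested (16865). limma 3.58.1 in R 4.3.3 fitted 1 mean per group over 37 arrays (two-sided, Benjamini-Hochberg over all genes tested), and scripts were tested on simulated data. A marker level is the mean over a list of log2 values centred per gene. An array was in doubt where a lymphocyte or muscle level exceeded the median of the 37 arrays by over 1, or where Ptpn1 opposed the label. Every called collagen is named. Array values are given for called chains of types I, III, IV, V and VI. Pathway lists name up to 4 called genes by size, or 2 of smallest p. Members and lists were chosen with earlier results of these data known. RefSeq (GRCm38.p6) supplied names, gene order and promoter windows. Alternatives were tried for filter, probe sets, scaling, prior, weights, covariates, replicate block, samples fitted and arrays left out.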

Additional observations from a re-analysis of the deposited data

Results flagged for a closer look

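Among groups of 4 or 5 arrays, 96 were checked for a single array far from the rest, over 16 collagens, and 2 stood out, where chance flags about 1 in 20 groups. Both concern Col11a1. WT P7 replicate 3 read 7.15 against 7.28 for its nearest neighbour, a gap of 0.882 of the group's range. WT P15 replicate 2 read 6.79 against 6.95, a gap of 0.934 of the range.

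For 12 collagens the difference between genotypes varied over the 5 stages by limma's F test. The adjusted p was 0.00231 for Col5a2, 0.00366 for Col18a1, 0.0074 for Col6a3, 0.00743 for Col1a2, 0.00998 for Col3a1, 0.0105 for Col6a2, 0.0134 for Col6a1, 0.0137 for Col4a2, 0.0145 for Col15a1, 0.0305 for Col1a1, 0.0371 for Col5a1 and 0.0436 for Col4a1. Without the arrays in doubt 1 collagen was called in this test.

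The change since P0 also differed between KO and WT, always lower in KO, and the stages share their P0 arrays. At P3 the difference in log2 change was -0.98 for Col5a2, -0.81 for Col6a1 and -0.75 for Col6a2. At P10 it was -1.11 for Col15a1, -1.07 for Col18a1, -1.01 for Col5a2, -1.0 for Col4a2, -0.87 for Col6a3, -0.81 for Col6a2, -0.8 for Col4a1, -0.78 for Col1a1, -0.78 for Col3a1, -0.76 for Col6a1, -0.7 for Col1a2 and -0.49 for Col5a1. At P15 it was -1.28 for Col14a1, -0.9 for Col5a2, -0.87 for Col1a2, -0.84 for Col3a1, -0.71 for Col6a3, -0.65 for Col6a2 and -0.45 for Col5a1. Without the arrays in doubt 0 collagens were called at P3 and at P10 and 6 at P15.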

How the results depend on the processing

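Counts are of collagens called by limma, and the causes of the changes were not tested. KO against WT averaged over stages gave 9 calls, 17 with array weights, 2 with lymphocyte and muscle scores as covariates and 1 without the arrays in doubt. KO against WT at P0 gave 0, 2 with array weights and 1 with adipocyte and epithelial covariates. KO against WT at P10 gave 13, 21 after centring, 25 with array weights, and 0 with either covariate pair, with the compared groups alone and without the arrays in doubt. In WT, P3 against P0 gave 4, 7 after centring and 0 with groups alone. P7 gave 10, 19 with array weights, 5 with lymphocyte and muscle covariates, 6 with adipocyte and epithelial covariates and 3 without the arrays in doubt. P10 gave 11, 21 with array weights, 0 with groups alone and 7 without the arrays in doubt. P15 gave 18, 28 after quantile normalisation, 32 after centring, 4 with adipocyte and epithelial covariates and 11 with groups alone. In KO with groups alone, P3 gave 5 (from 11), P7 gave 4 (from 9) and P10 gave 7 (from 23). KO P10 also gave 35 after centring, 6 and 7 with the 2 covariate pairs and 4 without the arrays in doubt. The difference in change to P3 gave 3, and 0 with lymphocyte and muscle covariates, groups alone or without the arrays in doubt. To P7 it gave 0, and 1 with array weights. To P10 it gave 12, 20 with array weights, and 0 with either covariate pair, groups alone or without the arrays in doubt. The F test gave 12, 2 and 3 with the covariate pairs and 1 without the arrays in doubt. With adipocyte and epithelial covariates, Col4a5 at P15 in WT turned to -0.16 and Col4a1 at P10 in KO to 0.12. Col1a2, Col3a1, Col5a2, Col6a2 and Col6a3 kept their P15 genotype call in all 11 alternatives other than leaving out 1 array.

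Leaving out 1 array gave 4 to 11 calls for the mean over stages, 0 to 4 at P0, 0 to 2 at P3, 0 at P7, 6 to 15 at P10 and 4 to 8 at P15 between genotypes. Against P0 it gave 0 to 7, 5 to 14, 4 to 15 and 12 to 20 in WT at P3, P7, P10 and P15, and 10 to 13, 4 to 10, 13 to 24 and 16 to 19 in KO. The difference in change gave 1 to 10, 0 to 1, 7 to 17 and 5 to 10, and the F test 9 to 15.

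The labels do not say that replicate numbers pair the arrays. Same-numbered arrays deviated with correlations of -0.52 to 0.38 (median 0.10, 9 of 18 pairs over 0.1), and 16 of 36 arrays correlated best with their own number. At P15 it was 6 of 8 arrays, with 3 of 4 pairs at 0.27 to 0.38 and 1 at -0.14, and at P3 it was 0 of 6. With the replicate block, calls between genotypes numbered 10 for the mean, 0 at P0, P3 and P7, 13 at P10 and 8 at P15. Against P0 they numbered 3, 11, 8 and 16 in WT and 13, 6, 23 and 18 in KO, for the difference in change 3, 0, 13 and 7, and for the F test 14. The arrays carry no depth, and 3 to 5 per group limit the precision. List counts without the arrays in doubt were added after seeing the data.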
